A study of Mus musculus with 6 samples.

Results

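The 38 genes described here encode the enzymes that make, interconvert and recycle purine and pyrimidine nucleotides, together with the cytosolic folate enzymes that feed them. They are listed by name and pathway step, by a rule that uses no measured value although the list was drawn up with earlier results of these data known, and come from a table of 25067 genes measured by RNA sequencing in 6 libraries of mouse colonic organoids, and all 38 passed the filter on low values that 13210 rows passed. The organoids were grown from crypts of C57BL/6 mice that were 8 weeks old and carried the genotype Prkcif/fPrkczf/f;Villin-CreERT2. In this genotype both atypical protein kinase C genes, Prkci and Prkcz, are floxed in every library, and the Villin promoter drives a tamoxifen-activated Cre in epithelial cells. On passage, 3 libraries' cultures received the Vehicle (Ethanol) and 3 received 4-OH-Tamoxifen (4-OHT), each for 3 days, in a medium with B27, WNT3A, EGF, Noggin and an R-spondin. The submitters call the vehicle group wild type and the 4-OHT group a double knockout, although the vehicle organoids carry the same floxed alleles and Cre. No library received 4-OHT without the floxed genes, so loss of the kinases, Cre activity and 4-OHT cannot be told apart. No source says that the libraries of a group came from separate animals or cultures, so the p-values measure only the spread between these libraries.

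Purines and pyrimidines are made by separate routes from PRPP (phosphoribosyl pyrophosphate). The purine ring is built on the sugar in a chain of steps that ends in IMP, the branch point to AMP and GMP, and uses formyl groups carried by folate. The pyrimidine ring is built first and joined to PRPP afterwards, to give UMP and then CTP. Ribonucleotide reductase turns ribonucleotides into the deoxynucleotides that DNA replication consumes, thymidylate synthase adds the methyl group of thymidylate from folate, and salvage enzymes recover free bases and nucleosides. In the colonic epithelium the dividing cells of the crypt carry most of the demand for deoxynucleotides.

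The libraries held between 15804709 and 26957612 reads, recovered from the deposited normalized counts (reads divided by 1 size factor per library). Prkcz fell from 912 ± 37.9 (SD, n = 3) to 281 ± 13.6 (SD, n = 3) normalized counts and Prkci from 3520 ± 86.9 to 3021 ± 132 (limma adjusted p = 3.17e-12 and 8.13e-04), with 1 value per gene that does not separate the floxed exons. The 10 markers of colon epithelium, among them Epcam, Cdh1 and Car1, were read in every library and summed to 20660 to 21140 RPM (reads scaled by the library's total) in the vehicle group and 26690 to 28460 in the 4-OHT group. A list of 11 small-intestinal and Paneth cell genes summed to 37.0 to 43.5 RPM in the vehicle libraries, 34.8 in 4-OHT replicate 1, and 68.4 and 62.9 in 4-OHT replicates 2 and 3, and smooth muscle genes summed to at most 0.571 in those first 4 libraries against 2.81 and 5.57 in the last pair. Leukocyte and plasma cell genes summed to 8.92 to 11.2 in the vehicle libraries and to 6.80, 18.6 and 11.8 in 4-OHT replicates 1, 2 and 3. Fibroblast genes summed to 5.13 to 6.13 in the vehicle libraries and 8.10, 8.27 and 21.4 in the 4-OHT libraries. The part of these transcripts in the values below was not tested, so the counts of genes are also given without 4-OHT replicates 2 and 3.

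Promoter stretches of 6 of the 38 genes are shown first, since the results turn on whether genes of a pathway step moved together: both subunits of ribonucleotide reductase (Rrm1, Rrm2), thymidylate synthase (Tyms) and thymidine kinase (Tk1), which fell, and hypoxanthine salvage (Hprt) and UMP-CMP kinase (Cmpk1), which rose. The sequences are from RefSeq on GRCm38.p6, which is not the build GRCm39 that the submitters name, so their positions are not positions in the submitters' files. Each run lies within the 250 bases before an annotated start and holds no exon of any gene. Capitals mark a CCAAT box or the E-box CACGTG, and every other base is in lower case.
Rrm1 (chr7:102441445-102441694, plus strand): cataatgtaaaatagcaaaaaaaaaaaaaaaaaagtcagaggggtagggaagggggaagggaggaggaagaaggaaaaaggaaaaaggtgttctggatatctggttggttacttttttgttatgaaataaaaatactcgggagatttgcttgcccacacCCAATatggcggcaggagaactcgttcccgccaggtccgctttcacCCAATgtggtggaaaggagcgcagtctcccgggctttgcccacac
Rrm2 (chr12:24708004-24708240, plus strand): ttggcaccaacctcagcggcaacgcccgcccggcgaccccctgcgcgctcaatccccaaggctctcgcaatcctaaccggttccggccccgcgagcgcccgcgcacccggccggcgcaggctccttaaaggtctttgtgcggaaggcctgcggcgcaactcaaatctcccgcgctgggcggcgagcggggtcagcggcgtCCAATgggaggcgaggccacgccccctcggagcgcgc
Tyms (chr5:30073626-30073875, minus strand): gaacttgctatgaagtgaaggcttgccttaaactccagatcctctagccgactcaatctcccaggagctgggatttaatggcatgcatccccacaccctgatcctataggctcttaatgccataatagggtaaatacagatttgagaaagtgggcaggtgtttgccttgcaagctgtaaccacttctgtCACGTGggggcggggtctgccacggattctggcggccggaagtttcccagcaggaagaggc
Tk1 (chr11:117826093-117826264, minus strand): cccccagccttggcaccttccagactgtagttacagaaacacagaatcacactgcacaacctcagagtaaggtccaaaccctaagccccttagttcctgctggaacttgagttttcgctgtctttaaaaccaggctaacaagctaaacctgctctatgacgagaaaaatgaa
Hprt (chrX:52987828-52988077, plus strand): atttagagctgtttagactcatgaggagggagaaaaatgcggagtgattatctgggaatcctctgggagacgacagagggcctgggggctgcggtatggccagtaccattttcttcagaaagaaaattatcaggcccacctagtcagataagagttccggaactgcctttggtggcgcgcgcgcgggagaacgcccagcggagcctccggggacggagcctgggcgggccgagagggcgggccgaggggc
Cmpk1 (chr4:114987242-114987478, minus strand): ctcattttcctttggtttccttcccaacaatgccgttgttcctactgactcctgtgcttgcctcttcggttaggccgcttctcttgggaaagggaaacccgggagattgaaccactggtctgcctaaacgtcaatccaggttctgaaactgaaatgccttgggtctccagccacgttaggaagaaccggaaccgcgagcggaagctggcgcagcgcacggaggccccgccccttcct

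Rrm1 carried CCAAT at 2 places, and Rrm2 at 1. Tyms carried an E-box. The stretches of Tk1, the gene that fell most, and of Hprt and Cmpk1, which rose, carried neither word. Windows from 250 bases before to 50 after the start were found for 36 of the 38 genes and were read on both strands. CCAAT was in 15 of 36 (41.7%), beside 41.1% of the 27025 genes with a window, and the 15 include Aldh1l1, Atic and Ctps2, which did not pass the test below. CACGTG, the word bound by Myc and related factors, was in 6 of 36 (Atic, Dtymk, Impdh2, Nme1, Paics and Tyms; 16.7%), beside 8.09% of all. The E2F words TTTCCCGC, TTTCGCGC, TTTGCCGC and TTTGGCGC were in Ppat and Prps2 (2 of 36, 5.56%, beside 2.60%), and the ATF4 word TGATGCAA was in 0 of 36 (beside 1.03%). These matches are descriptions of the letters in these windows and were not tested.

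In the 4-OHT organoids, 9 of the 15 genes of de novo purine and pyrimidine synthesis, 4 of the 5 genes of thymidylate synthesis and cytosolic folate and all 6 deoxynucleotide genes were lower, while base salvage through Aprt and Hprt, the nucleoside enzymes Upp1 and Cda and the kinase Cmpk1 were higher. The other 3 salvage genes, Tk1, Dck and Uck2, were lower, and 1 de novo gene, Adssl1, was higher. Of the 38 genes, 23 (60.5%) were lower and 6 (15.8%) higher past an adjusted p of 0.05 (limma-trend on log2 of the normalized count plus 1, Benjamini-Hochberg over 13210 rows), and 9 did not pass. Among all rows tested, 21.0% were lower and 22.7% higher, 43.6% in all. The median log2 fold change of the 38 was -0.21, beside -0.01 for all rows, and the values ran from -0.79 for Tk1 to 0.70 for Upp1. In the single 4-OHT libraries the median difference of the 38 genes from the vehicle mean was -0.17, -0.30 and -0.26 on the log2 scale, and it lay between -0.02 and 0.05 in the vehicle libraries. For 31 of the 38 the 3 values of a group did not overlap those of the other, beside 52.1% of all rows. Of these, 23 were lower in 4-OHT and 8 higher, beside 25.3% and 26.8% of all rows. In bulk RNA, fewer cells of a type and less RNA per cell cannot be told apart.

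Without 4-OHT replicates 2 and 3, where the remaining 4-OHT library was assumed to vary like the vehicle libraries, 17 genes were lower and 4 higher, and 3848 rows passed in place of 5765. The falls of Ppat, Paics, Adsl, Dtymk, Samhd1 and Uck2 and the rises of Adssl1 and Cda did not pass there. No gene called in the full comparison changed direction in any of the 16 alternatives.

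**Figure D1:**
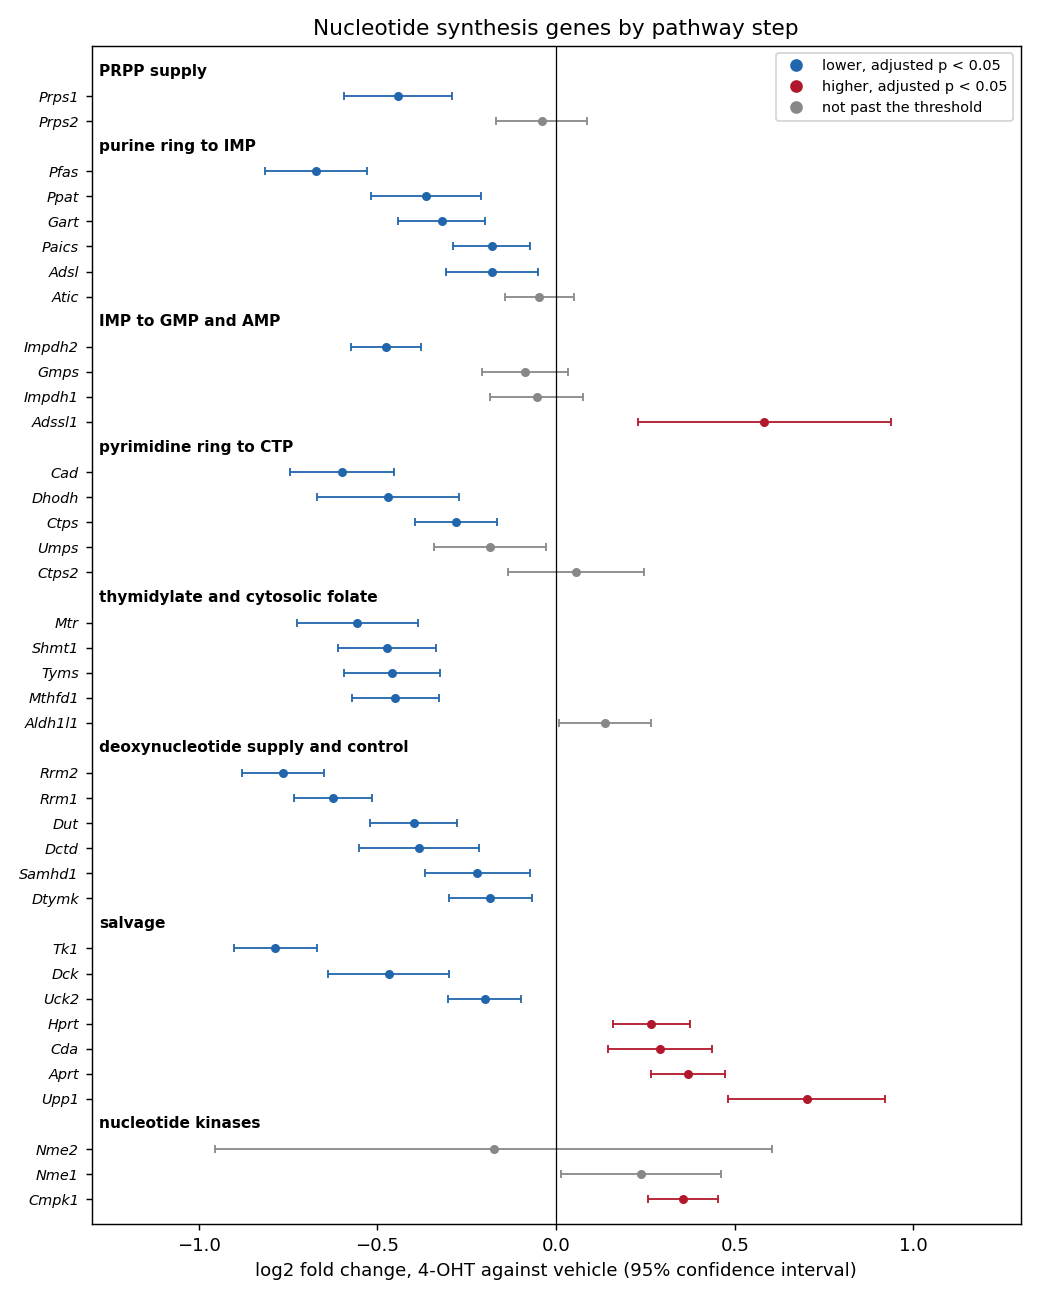
Log2 fold change (x axis, 4-OHT against vehicle) of each of the 38 genes (y axis), grouped by pathway step, with the 95% confidence interval of the limma fit (3 libraries per group). All 6 deoxynucleotide supply genes lie below 0, whereas the salvage genes lie on both sides, from -0.79 for Tk1 to 0.70 for Upp1.

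PRPP is made by the PRPP synthetases Prps1 and Prps2, and the Prps1 transcript fell while that of Prps2 did not pass the test. Prps1 had 763, 729 and 820 normalized counts in the vehicle libraries and 604, 554 and 542 in the 4-OHT libraries, so every 4-OHT value was below every vehicle value. The mean fell by 26.5% (-0.44 on the log2 scale, SE 0.07, limma adjusted p = 4.79e-05). Prps2 had 926, 885 and 919 against 913, 846 and 897, which overlap, with a log2 fold change of -0.04 (95% confidence interval -0.17 to 0.09, limma adjusted p = 0.628). The log2 ratio of Prps1 to Prps2 within a library was -0.24 ± 0.07 (SD, n = 3) in vehicle and -0.64 ± 0.07 (SD, n = 3) in 4-OHT, without overlap (exact two-sided permutation p = 0.10, the smallest that 3 against 3 libraries allow).

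Of the 6 genes from PRPP to IMP, 5 fell and none rose past the threshold, with a median log2 fold change of -0.25. Pfas, which adds the amide nitrogen from glutamine to the growing ring, fell most: it had 1031, 970 and 1110 normalized counts in vehicle and 687, 634 and 628 in 4-OHT. The groups were apart by more than their own range (log2 fold change -0.67, SE 0.07, limma adjusted p = 1.40e-07). Ppat, the first committed and rate-limiting step, had 1006, 994 and 1071 against 884, 708 and 800, with 4-OHT replicate 2 the lowest (-0.36, SE 0.07, limma adjusted p = 4.38e-04). Gart, a folate-dependent enzyme with several activities, had 2095, 2037 and 2283 against 1813, 1592 and 1731 (-0.32, SE 0.06, limma adjusted p = 1.61e-04). The 4-OHT values of Ppat and Gart, like those of Pfas, all lay below the vehicle values.

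Paics, which carries the next steps of the ring, had 2757, 3001 and 3004 in vehicle and 2727, 2520 and 2485 in 4-OHT (-0.18, SE 0.05, limma adjusted p = 0.0081), and the value of 4-OHT replicate 1 lay just below that of vehicle replicate 1. Adsl, which splits off fumarate on the way to IMP and again to AMP, changed by the same -0.18 (limma adjusted p = 0.0231), and its call was lost without vehicle replicate 1 (limma adjusted p = 0.0504), vehicle replicate 3 (0.131) or 4-OHT replicate 3 (0.104). Atic, the enzyme of the final steps to IMP, had a log2 fold change of -0.05 (95% confidence interval -0.14 to 0.05, limma adjusted p = 0.438) and overlapping groups. Without both 4-OHT replicates 2 and 3, 2 of the 6 genes of this route passed, Pfas and Gart. Ppat and Paics lie head to head on opposite strands and their annotated exons overlap, and the strand setting of the counting is not given in the sources used here, so reads there cannot be assigned to either with certainty.

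Of the 4 genes past IMP, 1 fell (Impdh2, towards GMP), 1 rose (Adssl1, towards AMP) and 2 did not pass, and the branches themselves were not compared by a test. These shares, 25% lower and 25% higher, were near the 21.0% and 22.7% of all rows. Impdh2, the IMP dehydrogenase isoform that prevails in dividing cells and limits GMP synthesis, had 3612, 3705 and 3931 normalized counts in vehicle and 2737, 2697 and 2648 in 4-OHT. Every 4-OHT value was lower and the mean fell by 28.2% (log2 fold change -0.48, SE 0.05, limma adjusted p = 1.03e-07). Its isoform Impdh1 had 1451, 1405 and 1504 against 1290, 1536 and 1381, with groups that overlap (-0.05, 95% confidence interval -0.18 to 0.08, limma adjusted p = 0.513). The log2 ratio of Impdh2 to Impdh1 was 1.37 ± 0.04 (SD, n = 3) in vehicle and 0.94 ± 0.14 (SD, n = 3) in 4-OHT, without overlap (exact two-sided permutation p = 0.10, the smallest possible). Gmps, which completes GMP, did not pass (-0.09, limma adjusted p = 0.235).

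Adssl1, the adenylosuccinate synthetase known best from muscle, was read at a low level and rose: it had 63.4, 77.3 and 79.9 normalized counts in vehicle and 103, 131 and 99.0 in 4-OHT (0.58, SE 0.17, limma adjusted p = 0.0085). Its highest value was in 4-OHT replicate 2, and without that library the rise was 0.46 (limma adjusted p = 0.059). Its isoform Adss, which is not among the 38 genes, rose by 0.17 (limma adjusted p = 0.0092), from 4148 ± 180 to 4670 ± 273 (SD, n = 3 each).

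The pyrimidine route held 3 falls among 5 genes, with a median of -0.28. Cad, the enzyme of the first steps of the pyrimidine ring and the regulated point of the route, had 3057, 2699 and 3253 normalized counts in vehicle and 2200, 1787 and 1965 in 4-OHT. The mean fell by 33.9%, with no overlap (log2 fold change -0.60, SE 0.07, limma adjusted p = 8.99e-07). Dhodh, the mitochondrial dehydrogenase that hands its electrons to ubiquinone, had 387, 414 and 406 against 295, 258 and 320 (-0.47, SE 0.09, limma adjusted p = 4.35e-04). The 4-OHT values of Dhodh again lay below all vehicle values. Umps, which attaches PRPP and gives UMP, had 772, 812 and 872 against 800, 661 and 703: 4-OHT replicate 1 lay inside the vehicle range, and the log2 fold change of -0.19 did not pass (limma adjusted p = 0.053). It passed without 4-OHT replicate 1 (-0.26, limma adjusted p = 0.0075) and without vehicle replicate 1 (-0.23, 0.0438).

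CTP synthase is encoded by Ctps and Ctps2. Ctps had 1425, 1446 and 1527 normalized counts in vehicle and 1226, 1217 and 1177 in 4-OHT (-0.28, SE 0.05, limma adjusted p = 3.12e-04). Ctps2 had 398, 427 and 362 against 401, 452 and 381, which overlap (0.06, 95% confidence interval -0.13 to 0.25, limma adjusted p = 0.658). Thus Ctps was below its vehicle range in each 4-OHT library and Ctps2 was not. The log2 ratio of Ctps to Ctps2 was 1.89 ± 0.16 (SD, n = 3) in vehicle and 1.55 ± 0.11 in 4-OHT, without overlap (exact two-sided permutation p = 0.10, the smallest possible).

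Thymidylate synthesis and the cytosolic folate cycle fell in 4 of 5 genes, by a narrow range of -0.56 to -0.45 on the log2 scale. Tyms, thymidylate synthase, had 990, 921 and 971 normalized counts in vehicle and 716, 716 and 663 in 4-OHT (-0.46, SE 0.06, limma adjusted p = 7.98e-06). Shmt1, which loads the carbon unit of serine onto folate, had 1452, 1479 and 1527 against 1180, 1072 and 966 (-0.47, SE 0.07, limma adjusted p = 7.33e-06). Mthfd1, which interconverts the folate forms used for thymidylate and for purines, had 2313, 2484 and 2563 against 1955, 1757 and 1682 (-0.45, SE 0.06, limma adjusted p = 3.61e-06). In each of these genes the highest 4-OHT value was below the lowest vehicle value.

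Mtr, methionine synthase, had 630, 621 and 623 normalized counts in vehicle and 477, 396 and 405 in 4-OHT, the largest log2 fold change of the 5 (-0.56, SE 0.08, limma adjusted p = 1.36e-05). Its vehicle values were the tightest of the 5, with an SD of 4.35. Aldh1l1, which oxidizes formyl-folate and so removes the carbon unit, went the other way in value, from 852, 814 and 889 to 909, 966 and 933, without overlap, but it did not pass the test (0.14, SE 0.06, limma adjusted p = 0.081). Shmt1 shares exon sequence on the opposite strand with Smcr8, which had a log2 fold change of 0.06 and did not pass (limma adjusted p = 0.383).

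All 6 genes of deoxynucleotide supply and control fell, with a median of -0.39. Rrm2, the small subunit of ribonucleotide reductase that is made in S phase, had 2452, 2374 and 2680 normalized counts in vehicle and 1528, 1430 and 1458 in 4-OHT. Its mean fell by 41.2% (log2 fold change -0.76, SE 0.05, limma adjusted p = 1.56e-09). Rrm1, the large subunit, had 3814, 3937 and 4188 against 2731, 2419 and 2600 (-0.62, SE 0.05, limma adjusted p = 1.27e-08). Both subunits thus had 4-OHT values below the vehicle range. Rrm2b, an alternative small subunit known as a p53 target and not among the 38 genes, had 134, 161 and 119 against 153, 196 and 196 and rose by 0.39 (limma adjusted p = 0.0305), with overlapping groups. That call was lost with DESeq2, without vehicle replicate 1, 4-OHT replicate 2 or 4-OHT replicate 3, and without both of the latter. The log2 ratio of Rrm2 to Rrm2b fell from 4.18 ± 0.31 to 3.02 ± 0.25 (SD, n = 3 each), without overlap (exact two-sided permutation p = 0.10, the smallest possible).

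Dut, the dUTPase that keeps uracil out of DNA, had 1332, 1298 and 1438 normalized counts in vehicle and 1003, 1062 and 1018 in 4-OHT (-0.40, SE 0.06, limma adjusted p = 1.48e-05). Dctd, which deaminates dCMP to the substrate of thymidylate synthase, had 559, 512 and 488 against 410, 398 and 385 (-0.38, SE 0.08, limma adjusted p = 6.34e-04). Neither gene had a 4-OHT value inside its vehicle range. Dtymk, the thymidylate kinase, and Samhd1, which degrades deoxynucleotides, fell less: -0.18 (limma adjusted p = 0.0107) and -0.22 (limma adjusted p = 0.0161). The call for Dtymk was lost without 4-OHT replicate 3 (limma adjusted p = 0.0599), and that for Samhd1 without vehicle replicate 1 (0.0956) or 4-OHT replicate 2 (0.0645).

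**Figure D2:**
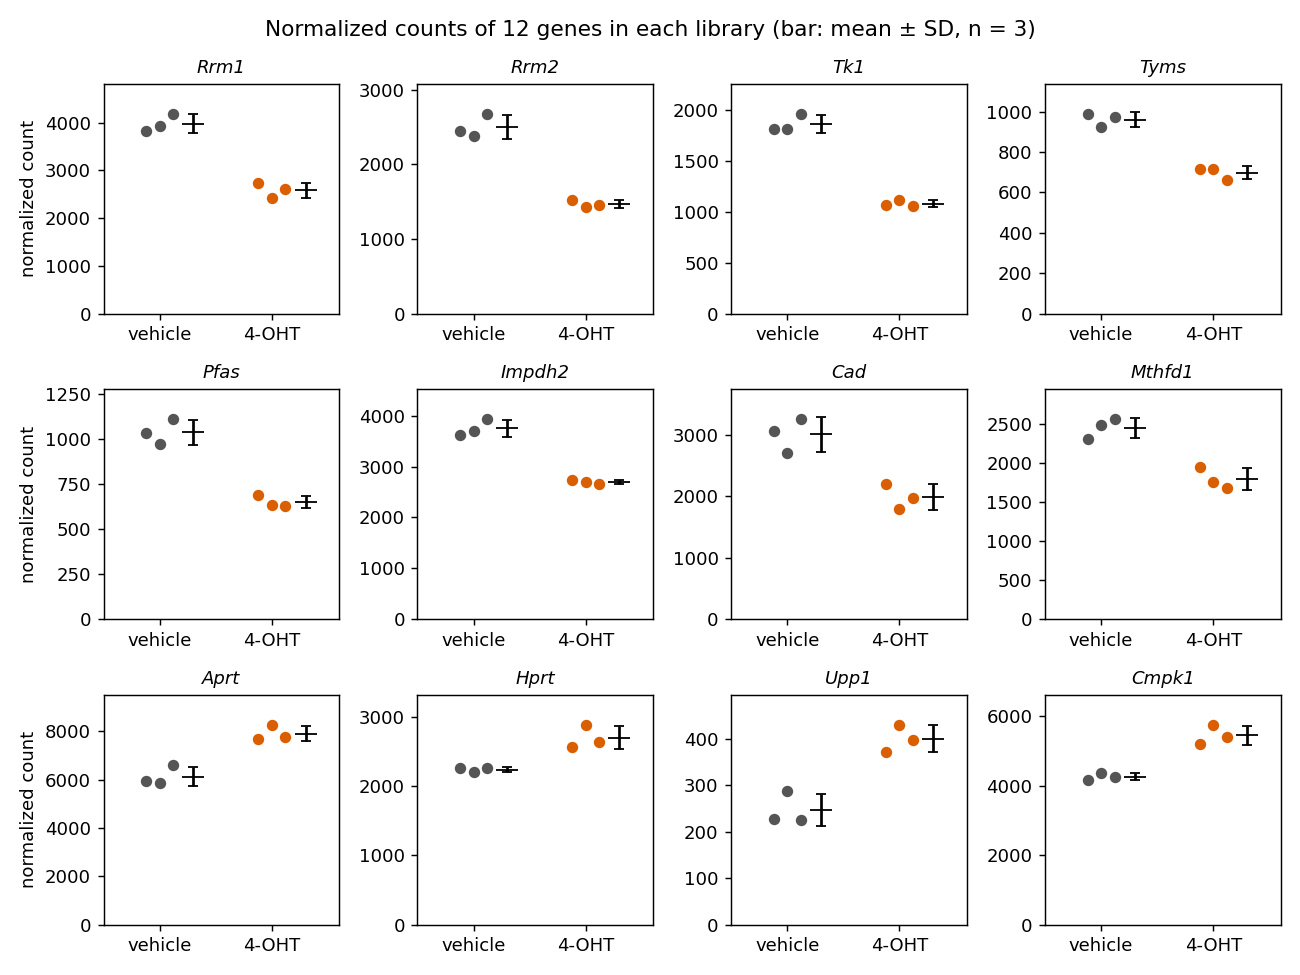
Normalized counts (y axis, from 0) of 12 genes in each vehicle and 4-OHT library (points), with the mean ± SD of each group (n = 3). In all 12 panels the groups do not overlap, with Rrm1, Rrm2, Tk1, Tyms, Pfas, Impdh2, Cad and Mthfd1 lower and Aprt, Hprt, Upp1 and Cmpk1 higher in 4-OHT.

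The salvage genes split: all 7 passed the threshold, 3 lower and 4 higher. Among these 7, the 3 that fell are the kinases that phosphorylate nucleosides. Tk1, the cytosolic thymidine kinase of S phase, had 1808, 1811 and 1961 normalized counts in vehicle and 1069, 1113 and 1052 in 4-OHT, the largest fall of the 38 genes. Its mean fell by 42.0% (log2 fold change -0.79, SE 0.06, limma adjusted p = 1.19e-09). Dck, the deoxycytidine kinase, had 506, 531 and 479 against 385, 354 and 355 (-0.47, SE 0.08, limma adjusted p = 9.62e-05). Uck2, the uridine-cytidine kinase, had 3508, 3613 and 3748 against 3326, 3132 and 3009 (-0.20, SE 0.05, limma adjusted p = 0.00245). In all 3 the groups did not overlap. Nucleoside kinases outside the 38 genes did not fall past the threshold. The adenosine kinase Adk rose by 0.21 (limma adjusted p = 0.0053). Uck1 (-0.05), Uckl1 (0.14) and Dguok (-0.19) did not pass (limma adjusted p = 0.608, 0.131 and 0.0961). Tk2, the mitochondrial thymidine kinase and not among the 38 genes, rose by 0.31 (limma adjusted p = 0.014), and the log2 ratio of Tk1 to Tk2 was 2.89 ± 0.13 in vehicle and 1.79 ± 0.03 in 4-OHT (SD, n = 3 each), without overlap (exact two-sided permutation p = 0.10, the smallest possible). Tk1 shares exon sequence on the opposite strand with Afmid, which had only 44.5 ± 20.6 normalized counts in vehicle (SD, n = 3).

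The 4 salvage genes that rose act on free bases and on pyrimidine nucleosides. Upp1, uridine phosphorylase, rose most, from 228, 287 and 225 normalized counts to 372, 430 and 397 (0.70, SE 0.11, limma adjusted p = 1.87e-05). Aprt, which joins adenine to PRPP, had 5943, 5850 and 6597 in vehicle and 7677, 8278 and 7761 in 4-OHT (0.37, SE 0.05, limma adjusted p = 5.39e-06). Hprt, which does the same for hypoxanthine and guanine, had 2253, 2203 and 2259 against 2566, 2886 and 2638 (0.27, SE 0.05, limma adjusted p = 2.79e-04). For these 3 genes, 4-OHT replicate 2 was the highest library and each 4-OHT value was above each vehicle value. Cda, cytidine deaminase, had 715, 748 and 669 against 831, 938 and 841, again with 4-OHT replicate 2 the highest (0.29, SE 0.07, limma adjusted p = 0.0020).

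Of the 3 nucleotide kinases, 1 rose (33.3%, beside 22.7% of all rows) and 0 fell. Cmpk1, which phosphorylates UMP and CMP, rose from 4157, 4352 and 4260 normalized counts to 5206, 5753 and 5388, without overlap (0.36, SE 0.05, limma adjusted p = 3.76e-06). Nme1, a nucleoside diphosphate kinase, had 214, 218 and 200 against 263, 226 and 257, which did not overlap, but its log2 fold change of 0.24 did not pass (limma adjusted p = 0.079). It passed without 4-OHT replicate 2 (0.31, limma adjusted p = 0.041). Nme2 had 17.7, 14.9 and 15.7 against 17.6, 9.33 and 17.1, and no difference was detectable at this depth (-0.17, 95% confidence interval -0.95 to 0.60). Nme1 and Nme2 both share exons on the same strand with the annotated gene Gm20390, which has no row in the table, so the values of both are uncertain.

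The rest of the pathway was read from lists of genes outside the 38. Their counts stand beside 21.0% lower and 22.7% higher among all rows. In the mitochondrial folate cycle, which makes formate from serine for the cytosol, 5 of 8 genes fell and 1 rose, with a median log2 fold change of -0.52. Aldh1l2, the mitochondrial formyl-folate dehydrogenase, fell from 971, 868 and 793 normalized counts to 116, 185 and 188 (-2.45, SE 0.14, limma adjusted p = 4.88e-11). Shmt2 fell by 1.11 and Mthfd2 by 1.02 on the log2 scale (limma adjusted p = 6.59e-12 and 4.63e-11), and in both the mean of the 4-OHT libraries was under 50% of that of the vehicle libraries. The cytosolic counterparts Shmt1, Mthfd1 and Aldh1l1 were set against them within each library. The log2 ratio of Shmt1 to Shmt2 went from -2.15 ± 0.08 to -1.52 ± 0.10, and that of Mthfd1 to Mthfd1l from 0.13 ± 0.03 to 0.35 ± 0.13 (SD, n = 3 each). For Aldh1l1, which did not pass the test itself, the ratio to Aldh1l2 went from -0.04 ± 0.18 to 2.55 ± 0.36. None of these 3 ratios overlapped between the groups (exact two-sided permutation p = 0.10 each, the smallest possible). In all, 9 such pairs were compared, and after Benjamini-Hochberg adjustment over the 9 each p was 0.10.

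Genes of serine synthesis, amino acid transport and glycine cleavage were read as a list of 9, of which 6 fell and 0 rose. Psat1 and Psph of serine synthesis fell by 1.09 and 1.06, and the amino acid transporter Slc1a5 by 0.86 (limma adjusted p = 1.45e-12, 4.01e-09 and 6.70e-11). Of 8 other folate genes tested of 10 listed, 4 fell and 1 rose. Ggh, the lysosomal hydrolase that shortens folate polyglutamates, rose by 0.79 (limma adjusted p = 6.25e-06). The rises in the serine and glycine list numbered 1 without vehicle replicate 3.

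Outside the de novo routes the directions were mixed. Of 14 further purine synthesis and interconversion genes, 2 fell and 6 rose, with a median of 0.12. Ak1, Ak4 and Ak3, kinases of adenine and guanine nucleotides, had the largest log2 fold changes (1.23, -0.53 and 0.33, limma adjusted p = 0.0090, 6.70e-07 and 3.31e-05), and Ak1 had at most 30.0 normalized counts in any library. Of 9 genes tested in the purine breakdown list, which also holds the nucleoside kinase Dguok, 5 fell and 2 rose. Pnp, which releases the bases that Hprt uses, had 296, 323 and 357 normalized counts in vehicle and 534, 515 and 505 in 4-OHT (0.67, limma adjusted p = 2.95e-06). The ectonucleotidase Nt5e fell by 0.56 and the xanthine oxidoreductase Xdh by 0.48 (limma adjusted p = 0.0027 and 0.0011). The 5 falls of this list became 3 without vehicle replicate 1, 4-OHT replicate 2 or 4-OHT replicate 3, and 2 without both 4-OHT replicates 2 and 3, where the 6 rises of the purine interconversion list also became 2 and its 2 falls 1. Of 11 further pyrimidine genes tested, 1 fell and 3 rose, and of 4 other reductase and kinase genes 0 fell and 1 rose, which was Rrm2b. The shares called in these lists, 36.4% and 25%, were below the 43.6% of all rows. The pyrimidine genes that rose were Upp2 (0.56, limma adjusted p = 0.0394, with overlapping groups), Tk2 and Nt5c (0.24, 0.0019). These 3 rises became 2 with DESeq2 and with no filter on low values. They were 4 without 4-OHT replicate 1 and 2 without any other single library. The fall, Dctpp1 (-0.18, 0.0448), named after its value was seen, did not pass with DESeq2, with no filter on low values, with the replicate block, without vehicle replicate 2, vehicle replicate 3, 4-OHT replicate 2 or 4-OHT replicate 3, or without both of these 4-OHT libraries.

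Transcripts of DNA replication and mitosis moved with the deoxynucleotide genes. All 14 replication genes and all 12 mitosis genes fell past the threshold, beside 21.0% of all rows. Their medians were -0.60 (range -0.80 to -0.41) and -0.66 (range -1.02 to -0.49), larger in size than the median of -0.39 for deoxynucleotide supply. The values of Rrm1 (-0.62), Rrm2 (-0.76) and Tk1 (-0.79) lay within the range of the replication genes. Those of Dut (-0.40), Dctd (-0.38), Samhd1 (-0.22) and Dtymk (-0.18) lay above its highest value. In the single 4-OHT libraries the median difference from the vehicle mean was -0.54, -0.69 and -0.63 for replication and -0.39, -0.37 and -0.42 for deoxynucleotide supply. The 8 markers of crypt stem cells summed to 978 to 993 RPM in vehicle and 747 to 815 in 4-OHT, where 7 of them were lower without overlap and Sox9 was higher. The 8 colonocyte genes summed to 108 to 121 and 137 to 151, with 4 higher without overlap. Enteroendocrine genes summed to 33.4 to 47.1 and 49.8 to 59.2, with 4 of 7 higher without overlap, and tuft cell genes to 8.80 to 11.1 and 11.7 to 12.8, with 1 of 4 (Avil). Most of the tuft sum was Avil, with 7.72 to 10.1 and 10.8 to 11.7 RPM. Goblet cell genes did not differ in sum, with 387 to 490 in vehicle and 423 to 469 in 4-OHT. Of the 7 goblet genes, 4 were higher and 1 (Fcgbp) lower without overlap. These counts stand beside 26.8% higher and 25.3% lower without overlap among all rows tested, read on normalized counts. The part of cell composition in the changes of the 38 genes was not tested.

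**Figure D3:**
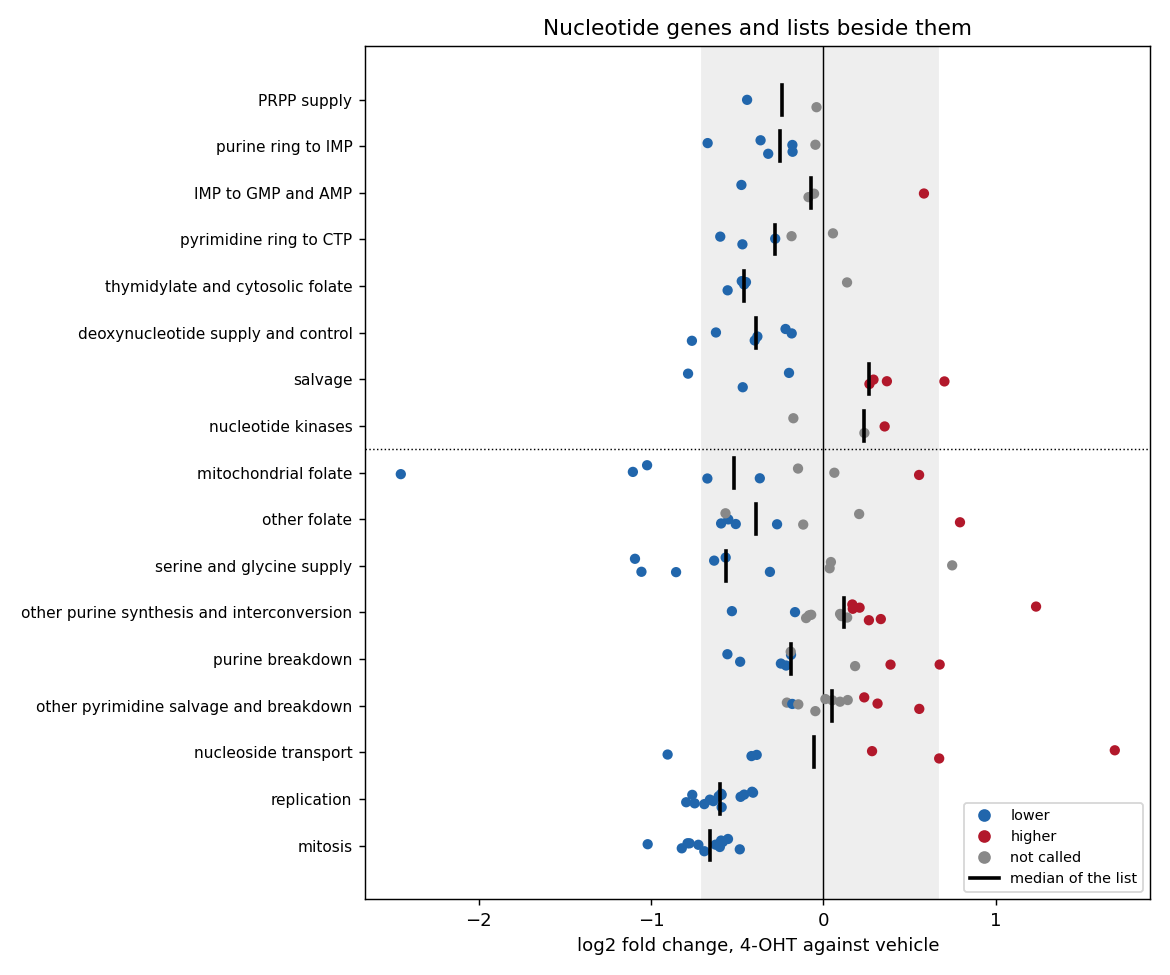
Log2 fold change (x axis, 4-OHT against vehicle) of every tested gene (points, coloured by call) in the 8 steps that make up the 38 genes (above the dotted line) and in lists beside them (below), with the median of each list as a bar. The grey band spans the range from -0.70 to 0.67 that holds the central 90% of all rows, and replication and mitosis lie wholly on the left while salvage lies on both sides of 0.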

How the data were processed

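The data are normalized counts per gene from RNA sequencing of 6 organoid libraries, 3 per group, grouped by the sample titles. The submitters' processing notes name STAR, DESeq2 and the builds GRCm39 and mm39, without versions or roles. The annotation, the strand setting and the treatment of shared reads are not given in the sources used here. The signal deposited by the authors is the count of reads on each gene divided by 1 size factor per library, neither scaled to a fixed total nor corrected for length. Dividing each library's values by the worth of 1 read gave integers, within 0.1 reads, for 100% of them, and these integers were taken as the reads. They came to 15804709 to 26957612 reads per library. Libraries of 1 group differed by 3.49 to 6.44 times the variance of counting alone, so none was a copy. Of 25067 rows, 1754 were 0 throughout.

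The fit was limma-trend (limma 3.58.1, R 4.3.3) on log2 of the normalized count plus 1, over 13210 rows with a mean of at least 10, without pairing. Paralog ratios used exact permutation tests (scipy 1.17.1). Tested on simulated data with 200 of 13210 genes changed by 1 on the log2 scale, limma-trend recovered 178 (89.0%) with 10 false calls. The 38 genes changed by less, from -0.79 to 0.70, and recovery of changes of that size was not simulated. edgeR 4.0.16 and DESeq2 1.42.0 were run on recovered reads as alternatives. The 38 genes, the lists, the paralog pairs and the motifs were chosen with earlier results of these data known. The E2F words were widened from 2 to 4 after the first 2 were in none of the windows of the 38 genes. Adss was named as a paralog, and Adk, Uck1, Uckl1 and Dguok were named after their values were seen. All 38 genes are named, with values in every library for up to 4 called genes per step and for others where a call was close, and up to 3 called genes of each other list. Some genes of those lists are not reported here. Overlaps of exons were read from GENCODE vM21, of an earlier build. Same-numbered libraries had correlations of -0.0075, 0.030 and -0.020 after group means were removed. No pairing by number was detectable, though 3 libraries per group cannot exclude one.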

Additional observations from a re-analysis of the deposited data

How the results depend on the processing

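Tried were a pseudocount of 0.1 or 10, omission of the filter, a minimum mean of 50, TMM factors, quantile normalization, the replicate block, edgeR, DESeq2, each library left out, and 4-OHT replicates 2 and 3 left out together. Over these 16 alternatives the number of genes that were lower among the 38 was between 17 and 24, the number higher between 4 and 7, and their median between -0.28 and -0.17, with 21 to 24, 6 and -0.28 to -0.20 when single libraries were left out. Rows called over the whole table numbered 3848 to 5780, with 4946 to 5636 when single libraries were left out, 5780 rows called by edgeR and 5208 by DESeq2 among all rows. The replicate block gave 23 lower, 6 higher, a median of -0.21 and 5637 rows, and changed no call among the 38, while the fall of Dctpp1 did not pass under it. Of 607 values for the 38 genes, 580 kept direction and side of the threshold, 15 lost the threshold, 6 gained it and 6 reversed. Of the 29 called genes, 21 kept their call in every alternative. The reversals were all of genes not called: Prps2 at 0.0052 and Nme2 at 0.12 without both 4-OHT replicates 2 and 3, and, with 1 library left out, Impdh1 at 0.0037 (range over single omissions -0.12 to 0.0037), Ctps2 at -0.014 and -0.0075 (range -0.014 to 0.11) and Nme2 at 0.10 (range -0.32 to 0.10). The cause was not tested. Umps passed with TMM factors and with a minimum mean of 50, and Nme1 with quantile normalization. Nme2, read at low depth, has no value with a minimum mean of 50.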

Other observations

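Of the 13 listed regulators of growth and S phase, 7 fell and 2 rose, beside 21.0% and 22.7% of all rows. E2f8 and E2f7, repressors that act in S phase, and E2f1, an activator, were among those that fell, and E2f5 and E2f6 did not pass. E2f8 went from 630 ± 3.20 to 314 ± 40.1 normalized counts (mean ± SD of 3 libraries, log2 fold change -1.01, SE 0.09, limma adjusted p = 2.39e-08), and E2f7 fell by 0.71 and E2f1 by 0.64 on the log2 scale (limma adjusted p = 6.83e-05 and 1.36e-05). Myc, which is known to act on many genes of nucleotide synthesis, had 4227, 4122 and 4272 normalized counts in vehicle and 4522, 4542 and 4290 in 4-OHT and did not pass (0.08, limma adjusted p = 0.148). Its relative Mycn had 60.6, 77.3 and 75.1 against 167, 125 and 195 (1.17, limma adjusted p = 1.52e-05). Atf4, E2f1, E2f5, E2f6 and Myc were named after their values were seen.

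The nucleoside transporters also divided. Of 7 listed, 6 were tested, and 3 fell and 3 rose, beside 21.0% and 22.7% of all rows. The concentrative carrier Slc28a3 went from 26.1, 34.8 and 38.7 normalized counts to 80.6, 135 and 116 (1.69, SE 0.22, limma adjusted p = 3.98e-06), whereas Slc28a2 went from 25.2, 35.5 and 29.1 to 10.3, 14.5 and 23.9 (-0.90, SE 0.34, limma adjusted p = 0.0369). Slc29a4 rose by 0.67 (limma adjusted p = 0.0024). The number of falls was 1 without 4-OHT replicate 2.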
